A study of Rattus norvegicus with 22 samples.

Results

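The genes described here are 42 mitosis genes, which encode the proteins that condense chromosomes, build the spindle, attach chromosomes to it, check the attachment and divide the cell. They were chosen with earlier results of these data known. They were taken by symbol, at any mean count, from a liver RNA-seq table of 14971 genes. The lowest mean among those 14971 genes was 1.04 normalised counts. Of the 42 symbols, 40 were listed and 2, Ccnb2 and Anln, were not analysed here. The listed genes are low in liver, and over all libraries 22 averaged 10 normalised counts or more and 18 averaged less.

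The tissue was rat liver, 22 libraries in 4 groups. Sham_Air (n = 5) had sham surgery and air, HepV_Air (n = 6) had hepatic vagotomy and air, Sham_O3 (n = 6) had sham surgery and ozone, and HepV_O3 (n = 5) had hepatic vagotomy and ozone. Hepatic vagotomy is the surgical cutting of the branch of the vagus nerve that runs to the liver, and a sham rat goes through surgery without that cut. Surgery took place at 12 weeks of age, with 5 to 6 days of recovery. Rats of all 4 groups were then exposed for 4 hours on 1 or 2 days, to air or to ozone at 1.0 ppm, and killed within 2 hours after exposure. The labels do not say which rats had 1 day and which had 2, so the days could not be compared, and they give neither strain nor sex. Libraries held 14098863 to 21141337 reads, and 1 read was worth 0.766 to 1.22 normalised counts. In 4 libraries (HepV_Air 1 and 5, Sham_O3 3 and HepV_O3 1) 5.8S ribosomal RNA was under 200 normalised counts, and the main counts are given with and without them. All 8 hepatocyte markers were listed, with a sum of 1829444 to 2606150 normalised counts per library.

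A cell enters mitosis when the pair of cyclin B and Cdk1 becomes active, and Plk1 and the Aurora kinases act with that pair. The mitotic genes are switched on together late in the cell cycle. The MuvB complex, with B-Myb (Mybl2) and FOXM1 (Foxm1), binds a short promoter element named the cell cycle homology region, and NF-Y binds CCAAT boxes beside it. In resting cells a form of MuvB named DREAM holds the same promoters silent. Adult hepatocytes rarely divide but can re-enter the cycle after tissue loss, and many of them are polyploid. RNA from bulk liver cannot show whether more cells are dividing or whether a cell holds more of an RNA, and these cannot be told apart here.

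The promoters of 7 of the genes are shown because the results turn on genes that moved together. Each stretch is the 130 bases before the RefSeq start in build GRCr8, read along the gene's strand. Capitals mark TTTGAA, which reads as TTCAAA from the other strand, TTTAAA, which reads the same from both, and CCAAT, which reads as ATTGG from the other strand.
Ccnb1, chr2:33655226-33655355, minus strand: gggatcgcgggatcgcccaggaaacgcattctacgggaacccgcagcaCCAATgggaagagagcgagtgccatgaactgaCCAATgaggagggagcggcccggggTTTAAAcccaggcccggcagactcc
Cdk1, chr20:19265163-19265292, plus strand: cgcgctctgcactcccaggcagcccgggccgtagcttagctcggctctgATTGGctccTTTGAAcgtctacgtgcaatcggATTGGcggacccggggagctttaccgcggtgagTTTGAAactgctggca
Top2a, chr10:84473094-84473223, minus strand: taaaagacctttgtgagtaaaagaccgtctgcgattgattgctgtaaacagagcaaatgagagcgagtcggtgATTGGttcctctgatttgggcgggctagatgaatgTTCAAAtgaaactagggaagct
Prc1, chr1:143659351-143659480, plus strand: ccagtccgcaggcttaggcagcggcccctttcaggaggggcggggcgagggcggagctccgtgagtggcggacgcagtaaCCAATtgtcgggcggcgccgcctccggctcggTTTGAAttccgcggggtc
Cdc20, chr5:137255800-137255929, minus strand: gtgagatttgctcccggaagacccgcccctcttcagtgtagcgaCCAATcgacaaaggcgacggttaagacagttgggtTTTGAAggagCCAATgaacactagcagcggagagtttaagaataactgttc
Kif20a, chr18:26504292-26504421, plus strand: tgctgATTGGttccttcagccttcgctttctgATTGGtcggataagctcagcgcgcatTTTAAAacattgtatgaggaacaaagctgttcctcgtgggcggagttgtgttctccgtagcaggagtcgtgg
Mybl2, chr3:172124675-172124804, plus strand: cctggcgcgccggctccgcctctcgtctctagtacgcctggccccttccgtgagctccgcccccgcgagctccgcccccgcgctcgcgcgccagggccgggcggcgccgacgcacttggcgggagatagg
Ccnb1, Cdk1, Top2a, Prc1 and Kif20a were among the genes that rose after vagotomy, Cdc20 was not called, and Mybl2 is shown as a promoter with neither word.

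RefSeq promoters of 300 bases, from 250 before to 50 after the start, matched 33 of the 40 genes. TTTGAA or TTTAAA stood on either strand in 31 of the 33 (93.9%), against 20.5% of the 10200 listed genes with a promoter and 29.7% of all 27457 genes of the promoter table. CCAAT stood in 25 of 33 (75.8%), against 39.1% of the 10200, and in at least 2 places in 17 of 33 (51.5%), against 13.9%. Both kinds of word stood in 25 of 33, against 8.24%. Different words overlapped each other in 2 places. Melk and Mybl2 held no TTTGAA or TTTAAA in this window. With the vagotomy effects in air and in ozone averaged, the words did not separate genes that rose from genes that were not called. TTTGAA or TTTAAA stood in 13 of 13 and 18 of 20 of them, and CCAAT in 9 of 13 and 16 of 20. Kif23 and Mybl2, which were called after vagotomy in ozone but not on average, are among the 20. These are matches of letters, and binding was not measured.

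Over both exposures, 14 of the 40 mitosis genes were higher in vagotomised than in sham rats, and 26 were not called. Each test below is limma's two-sided moderated test over all 14971 genes, with Benjamini-Hochberg adjustment over all of them and a call at an adjusted p under 0.05. Changes are on the log2(normalised count + 1) scale, which understates the change of low genes, with their SE. With the vagotomy effects in air and in ozone averaged, 0 of the 40 genes fell, and 0.207% of all genes rose. The highest changes were those of Ccnb1 (2.31 ± 0.36), Top2a (2.29 ± 0.35), Cdk1 (2.25 ± 0.40) and Ect2 (2.22 ± 0.38). The median change of the 40 genes was 1.08, beside -0.0004 for all genes, and 40 of 40 estimates were above 0. At an unadjusted p under 0.05 there were 32 of the 40 and 1350 of all genes. The 14 make up 45.2% of the 31 genes that rose in this comparison. The mitosis genes were chosen with earlier results of these data known. Their counts and shares, set beside those of all genes here and below, are therefore a description and not separate support. Of the 14, 8 stayed called whichever of the 22 libraries was left out: Ccnb1, Cdk1, Top2a, Ttk, Knl1, Ect2, Prc1 and Kif20a. The other 6 stayed called in fewer of those 22 fits: Plk1 in 13, Kif2c in 7, Bub1, Bub1b and Tpx2 in 5 each, and Mki67 in 4. The count fell to 8 or 9 without any 1 of Sham_Air 1, 2 or 3, HepV_Air 1, 3 or 4, Sham_O3 1, 2, 3 or 4, or HepV_O3 2, 3 or 5, and to 8 without the 4 libraries low in 5.8S.

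**Figure D1:**
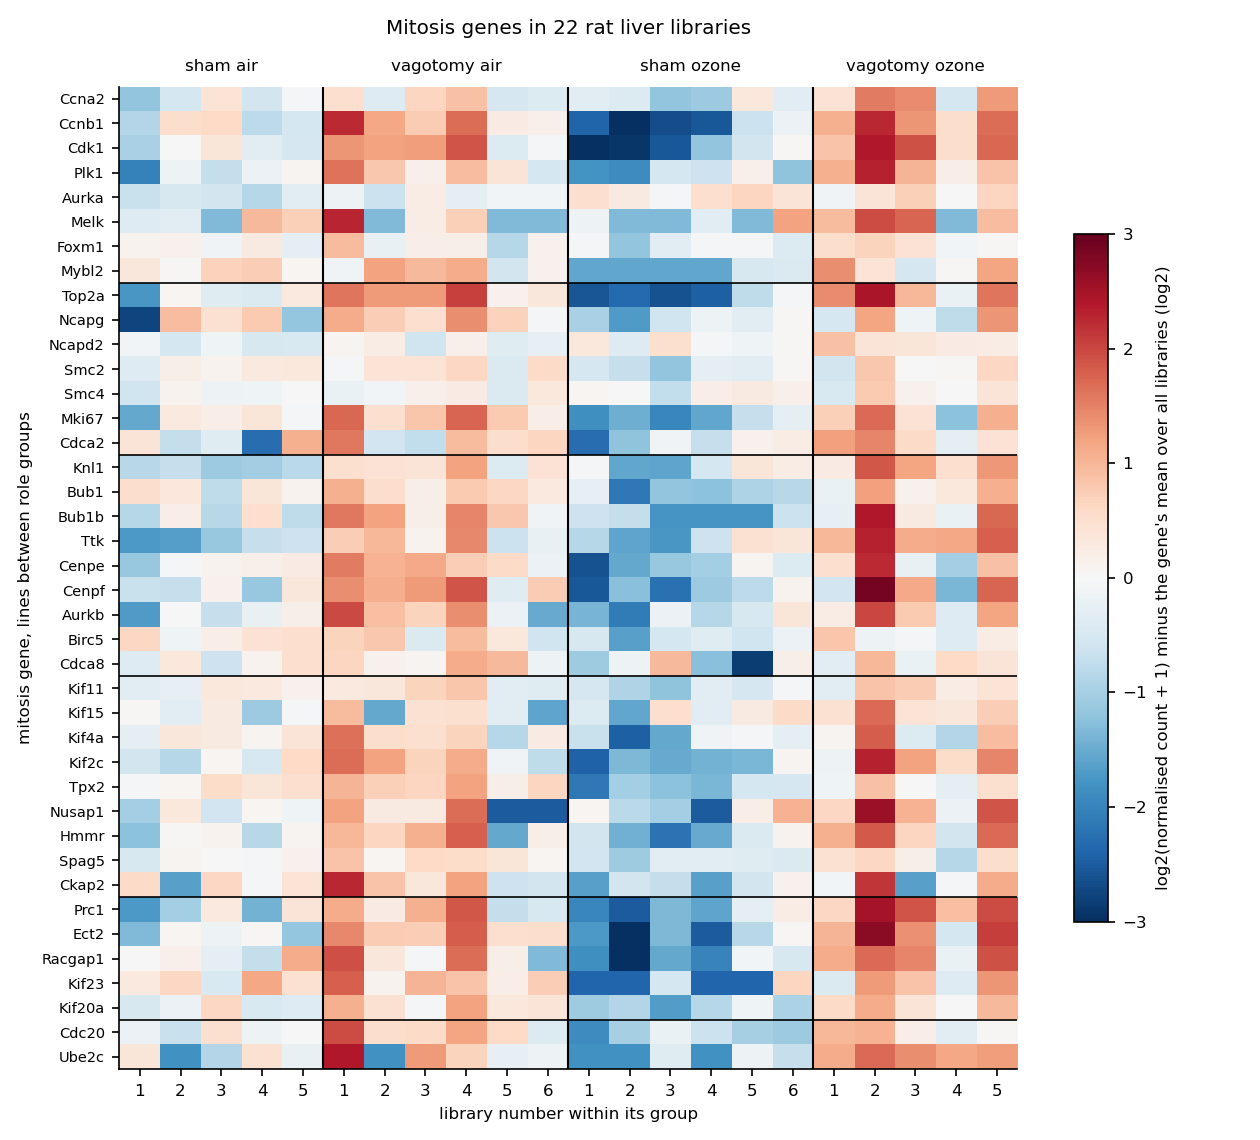
Heat map of the 40 listed mitosis genes (rows, by role) in the 22 libraries (columns, by group); colour is log2(normalised count + 1) minus the gene's mean over all libraries, and colours stop changing at the ends of the scale. From 32 to 40 of the 40 genes are above their mean in HepV_O3 2, 3 and 5 and HepV_Air 1 to 4, and 1 to 4 of them in Sham_O3 1 to 4.

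Within each exposure the result differed in what passed the test. In air, 0 of 40 genes were called after vagotomy, as for all genes (0%), by limma, by edgeR and by DESeq2. At an unadjusted p under 0.05 there were 13 of 40 genes in limma (488 of all genes), 20 in edgeR and 21 in DESeq2. The median change in air was 0.67, with 37 of 40 estimates above 0. In ozone, 18 of 40 rose and 0 fell, against 0.728% of all genes risen, and the median change was 1.54, with 39 of 40 above 0. The 18 were Ccnb1, Cdk1, Plk1, Mybl2, Top2a, Mki67, Knl1, Bub1, Bub1b, Ttk, Kif2c, Tpx2, Prc1, Ect2, Racgap1, Kif23, Kif20a and Ube2c, and they make up 16.5% of the 109 genes that rose. The averaged comparison is made of both within-exposure comparisons, so these counts are not independent. The difference between the vagotomy changes in ozone and in air was tested directly. It called 0 of 40 genes and 0% of all genes in limma, with 12 of 40 and 1266 of all genes at an unadjusted p under 0.05; edgeR also called 0, and DESeq2 called 19 genes, of which 0 were mitosis genes. A larger vagotomy change in ozone than in air was therefore not shown for any of them. The vagotomy count in ozone was 4 without HepV_O3 2 or HepV_O3 5, 7 without Sham_O3 1 and 9 without Sham_O3 2. It was 19 without the 4 libraries low in 5.8S and 4 when the fit held only the ozone groups.

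The groups of single genes seldom separated completely. In air, HepV_Air and Sham_Air did not overlap for 2 of 40 genes, Ect2 and Knl1, with HepV_Air the higher, against 0.214% of all genes. In ozone they did not overlap for 10 of 40, HepV_O3 being higher, against 1.14% of all genes. The 10 were Ccnb1, Cdk1, Plk1, Bub1, Bub1b, Ttk, Tpx2, Prc1, Kif20a and Ube2c.

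**Figure D2:**
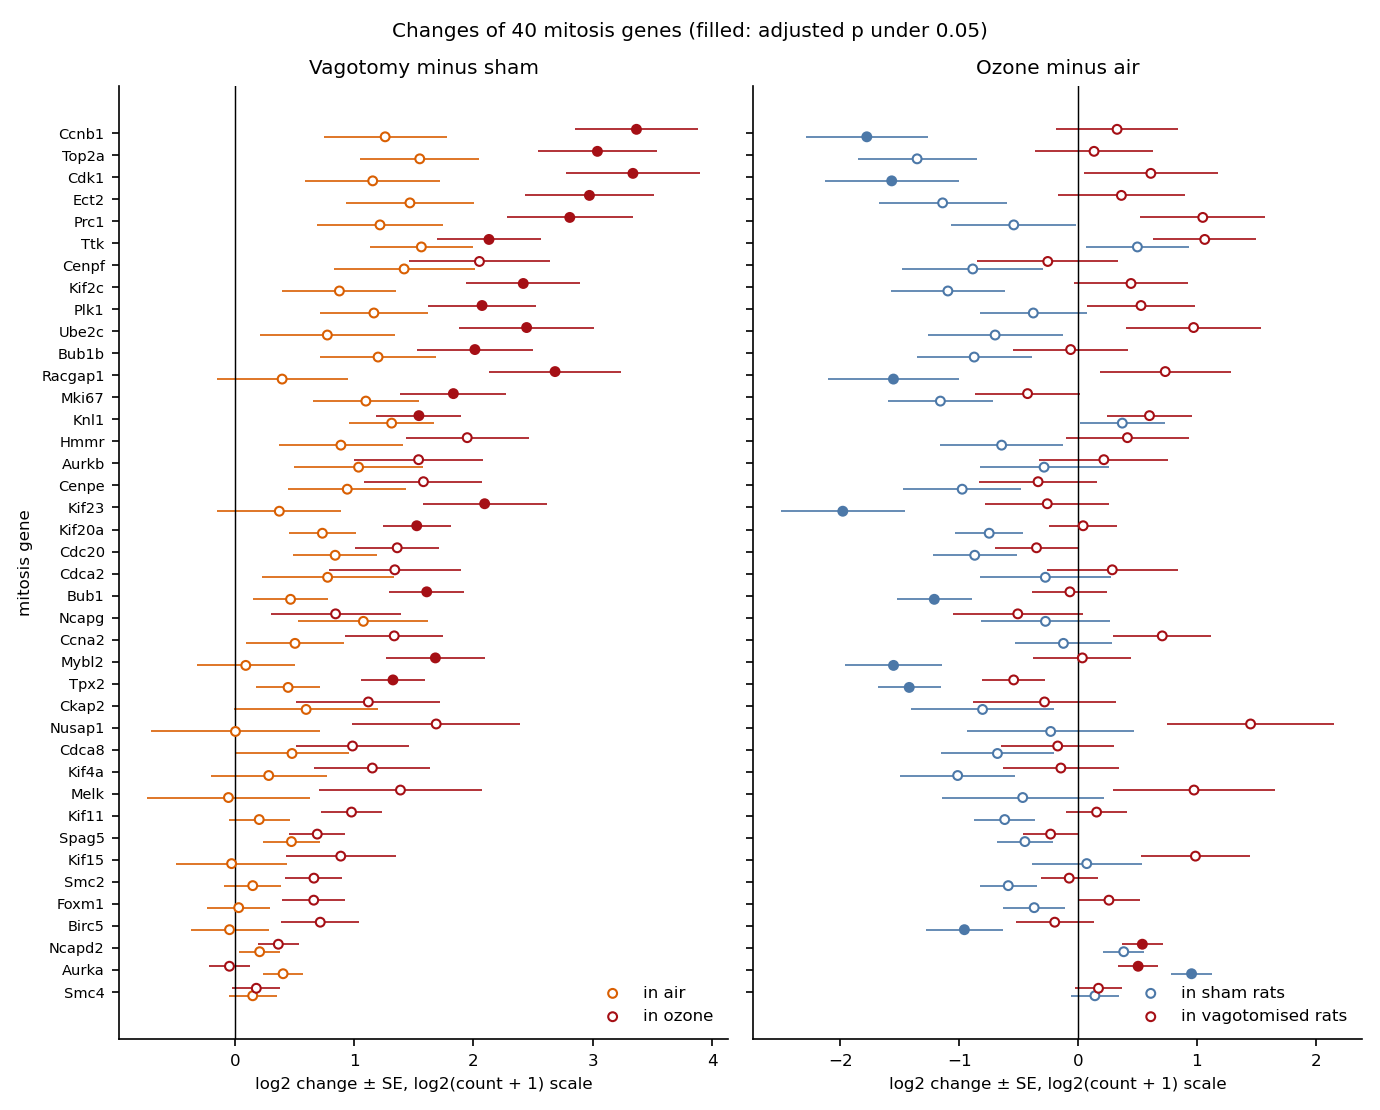
Log2 change of each of the 40 mitosis genes on the log2(normalised count + 1) scale, with bars of 1 SE; one panel gives vagotomy minus sham in air and in ozone, the other ozone minus air in sham and in vagotomised rats, and filled points passed an adjusted p of 0.05. In the vagotomy panel 18 points are filled in ozone and 0 in air; in the ozone panel 9 are filled in sham rats and 2 in vagotomised rats.

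The genes that take a cell into mitosis hold the highest estimate of all 40. Of 8 listed cyclins, kinases and factors of mitotic entry, 3 rose in the averaged comparison (Ccnb1, Cdk1 and Plk1) and 4 in ozone (these and Mybl2). Ccnb1, cyclin B1, had 5.35, 15.9, 16.7, 5.79 and 7.18 normalised counts in Sham_Air 1 to 5. HepV_Air ranged from 12.1 to 54.5 with a median of 22.1. Ozone gave Sham_O3 values from 0 to 9.44 with a median of 1.12, and HepV_O3 1 to 5 had 23.8, 55.7, 28.3, 15.8 and 36.4. Every HepV_O3 library was thus above every Sham_O3 library, whereas in air HepV_Air 5 and 6 lay among the sham values. The change was 1.26 ± 0.52 in air (limma adjusted p = 1) and 3.37 ± 0.52 in ozone (adjusted p = 0.00377), the latter a ratio of group means of 10.1.

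Cdk1, the kinase that cyclin B1 activates, had 7.14, 14.9, 19.5, 11.6 and 10.3 in Sham_Air, and 11.0 to 57.4 in HepV_Air with a median of 36.3. Sham_O3 held 0 to 15.3 with a median of 3.91, and HepV_O3 held 27.7, 83.5, 58.7, 21.8 and 51.3. Its ozone groups did not overlap and its air groups did. The averaged change had limma adjusted p = 0.0104, and the change was 1.16 ± 0.56 in air and 3.34 ± 0.56 in ozone (adjusted p = 0.00712).

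Plk1, the Polo kinase of spindle and centrosome, rose by 1.62 ± 0.32 on average and by 2.07 ± 0.45 in ozone (limma adjusted p = 0.0253 and 0.0287). HepV_O3 2, at 37.4, stood far above the other HepV_O3 libraries, the next of which was at 15.3. Mybl2, which encodes B-Myb, was counted in few reads: Sham_Air 1 to 5 held 2.68, 1.98, 3.72, 3.86 and 2.05, and Sham_O3 held 0 in 4 of 6 libraries and at most 1.18. HepV_O3 held 6.68, 2.88, 1.05, 1.98 and 5.60, so 1 of its libraries lay below the highest Sham_O3 value. The vagotomy change in ozone was 1.68 ± 0.41 (adjusted p = 0.0428), a size that depends on the pseudocount. The call held in 8 of 22 fits with 1 library left out. It was also lost with a pseudocount of 5, with the replicate number in the fit, without the 4 libraries low in 5.8S, and with only the ozone groups fitted.

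The remaining genes of this role were not called after vagotomy. Foxm1, the other activator of mitotic promoters, changed by 0.35 ± 0.19 on average (adjusted p = 0.62), with group means of 19.5 ± 3.02 (SD) in Sham_Air, 21.3 ± 9.12 in HepV_Air, 15.3 ± 4.16 in Sham_O3 and 24.4 ± 5.48 in HepV_O3. Ccna2, cyclin A2, changed by 0.92 ± 0.29 (adjusted p = 0.251) and stayed under 12 in every library. Melk, a kinase expressed in dividing cells, was at 0 in 8 of the 22 libraries and was also not called. Aurka, Aurora A of the spindle poles, did not follow the others and is described with the ozone comparisons below.

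**Figure D3:**
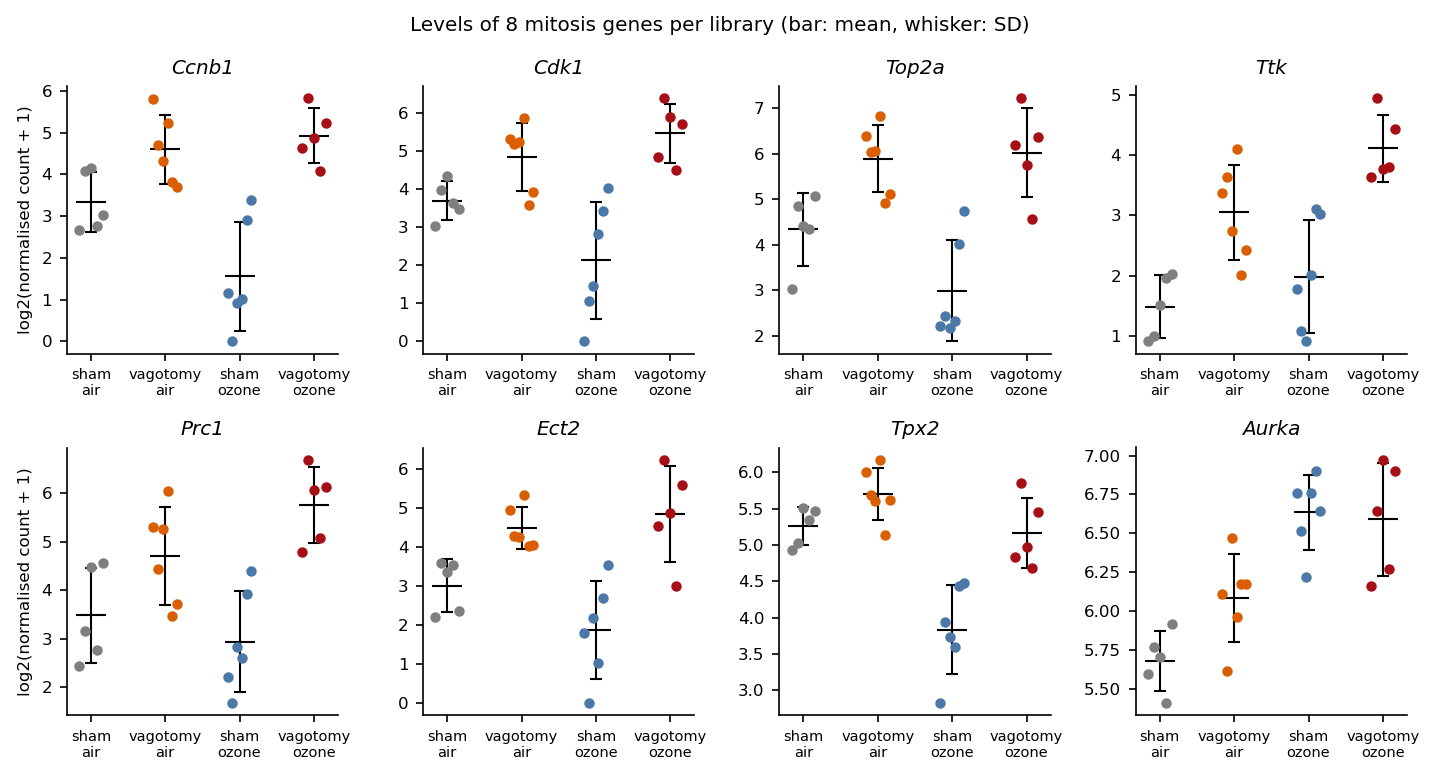
Levels of Ccnb1, Cdk1, Top2a, Ttk, Prc1, Ect2, Tpx2 and Aurka as log2(normalised count + 1), 1 point per library in the 4 groups, with a bar at the group mean and whiskers of 1 SD. For Ccnb1, Cdk1, Ttk, Prc1 and Tpx2 every HepV_O3 point lies above every Sham_O3 point; Aurka is instead higher in both ozone groups than in Sham_Air.

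Among 7 genes of chromosome structure, Top2a and Mki67 rose in the averaged comparison and in ozone, and 5 were not called in either. Top2a, the topoisomerase that untangles sister DNA, had 7.14, 27.8, 20.4, 19.3 and 32.8 in Sham_Air and 29.1 to 113 in HepV_Air with a median of 65.5. Sham_O3 held 3.50 to 26.0 with a median of 4.23, and HepV_O3 held 72.5, 149, 53.4, 22.8 and 82.1. HepV_O3 4 was the only vagotomised ozone library within the Sham_O3 range, and HepV_Air 5 the only vagotomised air library within the Sham_Air range. The change was 1.55 ± 0.50 in air, 3.04 ± 0.50 in ozone (adjusted p = 0.00712) and 2.29 on average (adjusted p = 0.00531).

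Mki67, the Ki-67 protein that coats mitotic chromosomes, rose by 1.47 ± 0.31 on average and 1.83 ± 0.44 in ozone (adjusted p = 0.0454 and 0.0418). HepV_O3 ran from 7.92 to 67.2 and Sham_O3 from 4.38 to 16.5. Smc4, a condensin subunit that compacts chromosomes, had group means of 141 ± 24, 157 ± 30.2, 158 ± 34.5 and 182 ± 58.4 in Sham_Air, HepV_Air, Sham_O3 and HepV_O3, an averaged change of 0.17 ± 0.14 (adjusted p = 0.809). Ncapd2 changed by 0.29 ± 0.12 (adjusted p = 0.483). Smc2 and Ncapg, also of condensin, and Cdca2, which brings a phosphatase to chromosomes, were not called either. Over the 22 libraries Smc2 ran from 45.5 to 183, Ncapg from 0 to 16.8 and Cdca2 from 0 to 13.6.

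Of 9 genes of the kinetochore, the spindle checkpoint and the passenger complex, 4 rose both in the averaged comparison and in ozone: Ttk, Knl1, Bub1 and Bub1b. Ttk, the Mps1 kinase that starts checkpoint signalling, had 0.892, 0.991, 1.86, 2.90 and 3.08 in Sham_Air and 3.01 to 16.1 in HepV_Air with a median of 7.54. Sham_O3 held 0.875 to 7.62 with a median of 2.74, and HepV_O3 held 11.4, 29.8, 12.6, 12.9 and 20.5. The ozone groups did not overlap, and in air only HepV_Air 5 lay below the highest sham value. The change was 1.56 ± 0.43 in air, 2.13 ± 0.43 in ozone (adjusted p = 0.0187) and 1.85 ± 0.31 on average (adjusted p = 0.00819).

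Knl1, the kinetochore scaffold that receives the checkpoint kinases, stayed within 6.50 to 8.92 in the 5 Sham_Air libraries. HepV_Air held 11.0 to 36.0, all above them. Sham_O3 held 4.38 to 19.6 and HepV_O3 18.1, 57.6, 35.6, 21.8 and 38.3, so HepV_O3 1 lay within the sham range. Its change was 1.31 ± 0.36 in air and 1.54 ± 0.36 in ozone (adjusted p = 0.039), with 1.43 ± 0.25 on average (adjusted p = 0.0104). Bub1, the checkpoint kinase bound by Knl1, rose by 1.04 ± 0.22 on average and 1.61 ± 0.32 in ozone (adjusted p = 0.0456 and 0.0166). Bub1b, which encodes the checkpoint inhibitor BubR1, rose by 1.61 ± 0.34 and 2.01 ± 0.48 (adjusted p = 0.0454 and 0.0418), and 3 of 6 Sham_O3 libraries had 0 reads of it.

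The other 5 of this role were not called after vagotomy. Cenpf, a large kinetochore protein, had the highest estimate among them, 1.73 ± 0.42 on average (adjusted p = 0.101). Its HepV_O3 values ran from 3.96 to 93.1, the widest range of the role. Cenpe, the kinetochore motor, changed by 1.26 ± 0.35 (adjusted p = 0.164) and Aurkb, the kinase of the passenger complex, by 1.29 ± 0.38 (adjusted p = 0.213). Its partner Birc5, survivin, had 6.20 ± 2.57 in HepV_O3 and 3.38 ± 1.23 in Sham_O3, a change of 0.72 ± 0.33 (adjusted p = 0.319). Cdca8, borealin of the same complex, ran from 0 to 14.6 over the 22 libraries and was not called.

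Of 9 spindle proteins and motors, Kif2c and Tpx2 rose in the averaged comparison and in ozone. Tpx2, which activates Aurora A and seeds spindle microtubules, had 29.4, 31.7, 44.6, 39.6 and 43.1 in Sham_Air and 34.1 to 71.2 in HepV_Air with a median of 49.3. Sham_O3 held 6.11 to 21.2 with a median of 13.3 and HepV_O3 held 27.7, 56.6, 30.4, 24.8 and 42.9. All Sham_O3 values lay below every value of the other 3 groups. The vagotomy change was 0.45 ± 0.27 in air and 1.33 ± 0.27 in ozone (adjusted p = 0.0179).

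Kif2c, the kinesin that takes microtubule ends apart, rose by 1.65 ± 0.34 on average and 2.42 ± 0.48 in ozone (adjusted p = 0.0387 and 0.0169), with 0 to 4.72 in Sham_O3 and 3.81 to 25.9 in HepV_O3. Kif11, the motor that pushes the spindle poles apart, changed by 0.98 ± 0.26 in ozone (adjusted p = 0.057), and Hmmr, a spindle pole protein, by 1.95 ± 0.52 (adjusted p = 0.0626). Spag5, the spindle protein astrin, changed by 0.69 ± 0.24 in ozone (adjusted p = 0.161). Kif15, a motor that backs up Kif11, Kif4a, a motor on chromosome arms, Nusap1, which bundles spindle microtubules, and Ckap2, which stabilises them, were not called. Their means were under 15 in every group. Nusap1 ran from 0 to 32.6 over all libraries, with means of 4.15 ± 3.76 in Sham_O3 and 14.9 ± 11.5 in HepV_O3 (SD), and its change had the largest SE of the 40 genes.

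Cytokinesis was the role in which every listed gene was called in ozone: 5 of 5 rose there, with a median change of 2.68, and 3 of 5 rose in the averaged comparison. With 1 library left out, the ozone call of Ect2 held in 22 of 22 fits, those of Prc1 and Kif20a in 20 each, that of Racgap1 in 18 and that of Kif23 in 5. With only the ozone groups fitted, Prc1 alone of the 5 stayed called. Prc1, which bundles the microtubules of the central spindle, had 4.46, 7.93, 21.4, 5.79 and 22.6 in Sham_Air and 10.0 to 65.1 in HepV_Air with a median of 28.9. Sham_O3 held 2.21 to 20.1 with a median of 5.59 and HepV_O3 held 26.7, 102, 66.0, 32.7 and 69.1. HepV_O3 was above Sham_O3 throughout, and the air groups overlapped. The change was 1.22 ± 0.53 in air, 2.81 ± 0.53 in ozone (adjusted p = 0.0141) and 2.01 ± 0.37 on average (adjusted p = 0.0147).

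Ect2, which activates RhoA at the division plane, had 3.57, 10.9, 9.29, 10.6 and 4.11 in Sham_Air and 15.1 to 39.1 in HepV_Air. Sham_O3 held 0 to 10.6 with a median of 2.97 and HepV_O3 held 21.9, 73.9, 28.3, 6.93 and 46.7. The air groups did not overlap. In ozone HepV_O3 4 lay below Sham_O3 6, and the change was 1.47 ± 0.54 in air and 2.97 ± 0.54 in ozone (adjusted p = 0.0116).

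Kif20a, the kinesin that carries the passenger complex to the central spindle, had 13.4, 16.9, 29.7, 13.5 and 14.4 in Sham_Air and 18.8 to 42.2 in HepV_O3, against 5.25 to 17.4 in Sham_O3. It rose by 1.13 ± 0.20 on average and 1.52 ± 0.28 in ozone (adjusted p = 0.0104 and 0.0133). Racgap1 and Kif23 together form centralspindlin, which recruits Ect2. Racgap1 changed by 2.68 ± 0.55 in ozone (adjusted p = 0.0196) and 0.40 ± 0.55 in air. Kif23 had 0 reads in 4 of 6 Sham_O3 libraries and 2.86 to 12.1 in HepV_O3, a change of 2.09 ± 0.52 (adjusted p = 0.0455).

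The anaphase-promoting complex destroys cyclin B1 to end mitosis, and 2 of its cofactors were measured. Ube2c, its ubiquitin-conjugating enzyme, had 3.57, 0, 0.929, 3.86 and 2.05 in Sham_Air, 0 to 2.18 in Sham_O3, and 6.68, 10.6, 8.38, 6.93 and 7.46 in HepV_O3. The HepV_O3 libraries were all above the 11 sham libraries, whereas HepV_Air held 0 to 17.9 with a median of 3.39. Ube2c rose by 2.45 ± 0.57 in ozone (adjusted p = 0.039) and was not called on average (1.61 ± 0.40, adjusted p = 0.104). Its ozone call held in 14 of 22 fits with 1 library left out and was lost with edgeR. Cdc20, the activator that the checkpoint holds back, changed by 1.10 ± 0.25 on average (adjusted p = 0.0628) and 1.36 ± 0.35 in ozone (adjusted p = 0.0553).

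Vagotomised libraries differed widely among themselves, and the same few libraries were high for many genes. The summed count of the 40 genes was 575 to 822 in Sham_Air (740 ± 96.9, SD), 741 to 1520 in HepV_Air (1115 ± 296), 500 to 820 in Sham_O3 (643 ± 127) and 824 to 2052 in HepV_O3 (1320 ± 478). HepV_O3 2 was the highest of its group for 33 of 40 genes and HepV_O3 4 the lowest for 24. HepV_Air 1 and 4 were each the highest for 18, and HepV_Air 5 and 6 the lowest for 18 and 16. In Sham_O3 the highest was library 6, for 22 genes, and in Sham_Air the lowest was library 1, also for 22. Sums of HepV_O3 lay above those of Sham_O3 in all 5 libraries. As a description over the 22 libraries, which share group structure and depth, each gene's log2 count was set beside the mean standardised level of the other mitosis genes with a mean of at least 10. Pearson's r was 0.955 for Top2a, 0.943 for Ccnb1, 0.935 for Ect2 and 0.926 for Cdk1. It was lowest for Aurka (-0.00016), Ncapd2 (0.184) and Cdca8 (0.372).

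**Figure D4:**
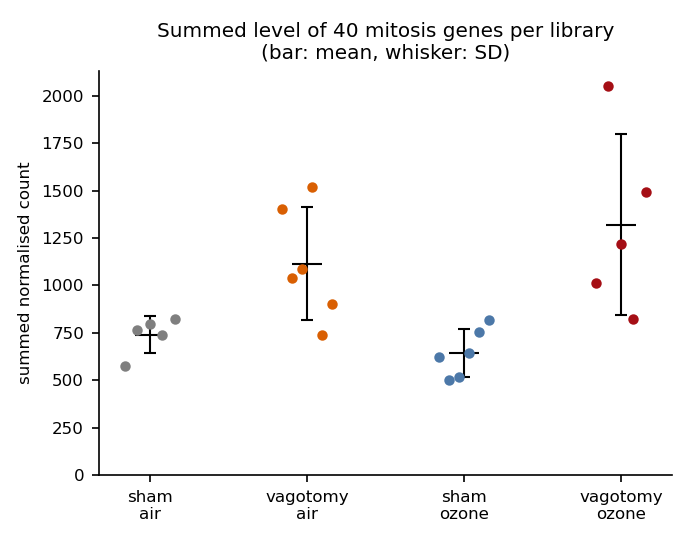
Summed normalised counts of the 40 listed mitosis genes per library (points) in the 4 groups, with a bar at the mean and whiskers of 1 SD. HepV_O3 libraries lie between 824 and 2052 and Sham_O3 libraries between 500 and 820, with no overlap; HepV_Air (741 to 1520) and Sham_Air (575 to 822) overlap.

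Exposure to ozone went with lower counts of some of these genes in sham rats. Compared with Sham_Air, 8 of 40 (20%) fell in Sham_O3, against 11.7% of all genes fallen, and 1 rose (Aurka), against 12.2% of all genes risen. Falls were thus common over all genes as well. The median change of the 40 was -0.69, beside -0.0003 for all genes, with 34 of 40 below 0. The genes that fell were Tpx2 (-1.42 ± 0.27, adjusted p = 0.000371), Bub1 (-1.21 ± 0.32, adjusted p = 0.00669), Kif23 (-1.98 ± 0.52, adjusted p = 0.00703), Mybl2 (-1.55 ± 0.41, adjusted p = 0.00755), Ccnb1 (-1.78 ± 0.52, adjusted p = 0.0137), Birc5 (-0.96 ± 0.33, adjusted p = 0.0352), Racgap1 (-1.55 ± 0.55, adjusted p = 0.0419) and Cdk1 (-1.57 ± 0.56, adjusted p = 0.0456). Tpx2 went from 37.7 ± 6.79 to 14.3 ± 5.84 (SD), and Birc5 from 7.26 ± 1.56 to 3.38 ± 1.23. The groups did not overlap for 3 of 40, Tpx2, Mybl2 and Birc5, with Sham_O3 the lower, against 6.29% of all genes. Top2a just missed the threshold (-1.35 ± 0.50, adjusted p = 0.0513), as did Kif20a (-0.75 ± 0.28, 0.0583) and Mki67 (-1.16 ± 0.44, 0.0611). This comparison shares the Sham_O3 libraries with the vagotomy comparison in ozone, so a low value in Sham_O3 enters both. Without Sham_O3 6, the highest of its group for 22 genes, 13 fell, and 5 fell without Sham_Air 3, Sham_Air 5 or Sham_O3 2. With edgeR 4 fell, and without the 4 libraries low in 5.8S 8 fell.

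In vagotomised rats ozone lowered none of the 40 past the threshold in limma, edgeR or DESeq2, and 2 rose, Aurka and Ncapd2, against 9.36% of all genes risen. The median change was 0.19, with 25 of 40 above 0, beside 7270 of all 14971 genes. An unadjusted p under 0.05 was found for 4 of 40, against 4348 of all 14971 genes. The largest estimated differences between the ozone changes of vagotomised and sham rats were 2.29 ± 0.78 for Racgap1 and 2.18 ± 0.80 for Cdk1, followed by Ccnb1 with 2.11 ± 0.73. None of them passed (adjusted p = 0.439, 0.457 and 0.439), so the loss of calls in vagotomised rats does not show that the ozone changes differed.

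Aurka, Aurora A, was the gene that followed exposure. It had 47.3, 53.5, 51.1, 41.5 and 59.5 in Sham_Air and 73.5 to 119 in Sham_O3 with a median of 103. HepV_Air held 48.1 to 87.6 with a median of 69.6, and HepV_O3 held 70.6, 98.9, 125, 76.3 and 119. Every Sham_O3 library was above every Sham_Air library, and HepV_O3 lay within and just outside the Sham_O3 range. The rise with ozone was 0.95 ± 0.17 in sham rats (adjusted p = 0.00023) and 0.51 ± 0.17 in vagotomised rats (adjusted p = 0.0427). The first stayed called whichever library was left out. The second was lost in 8 of 22 such fits, those without HepV_Air 1, 2, 4, 5 or 6 or HepV_O3 2, 3 or 5, with the highest adjusted p (0.148) without HepV_O3 3. It was also lost under scaling to equal totals or upper quartiles, and when only the groups compared were fitted. Ncapd2, the condensin subunit, changed with ozone by 0.38 ± 0.17 in sham rats (limma adjusted p = 0.113, not called). In vagotomised rats it rose by 0.54 ± 0.17 (adjusted p = 0.0322), from 93.1 ± 20.4 to 135 ± 27.5 (SD). It stayed called in 16 of the 22 fits with 1 library left out and was lost without HepV_Air 3, 5 or 6 or HepV_O3 1, 2 or 3, with the highest adjusted p (0.0938) without HepV_O3 1. It was also lost without the 4 libraries low in 5.8S, and under both scalings.

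Other genes of the cell cycle were counted from lists chosen with earlier results of these data known. Of 75 further mitosis genes chosen, 64 were listed. Among these 64, 5 rose and 0 fell in the averaged vagotomy comparison, against 0.207% of all genes risen, with a median of 0.80. In ozone 10 of them rose and 0 fell, against 0.728% of all genes risen, with a median of 1.08. The 5 were Kif14, Pbk, Ndc80, Ncaph and Cdca3. Kif14, a motor of cytokinesis, had group means of 0.398 in Sham_Air, 2.50 in HepV_Air, 0.181 in Sham_O3 and 3.87 in HepV_O3. Its averaged change was 1.69 ± 0.26 (limma adjusted p = 0.00531). Both sham means lie under 1.04, the lowest mean over all libraries of any listed gene. Kif14 may thus be listed only through its vagotomised libraries, and its rise is not separate support. Ndc80, which joins kinetochores to microtubules, changed by 1.62 ± 0.32 (adjusted p = 0.0253), and Ncaph, a condensin subunit, by 1.89 ± 0.39 (adjusted p = 0.0397). In ozone the genes that rose were Cdca3, Kif14, Ndc80, Pbk, Espl1 (separase), Iqgap3, Kif22, Nuf2, Sgo1 and Sgo2, of which some are named here only because they passed.

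Genes of earlier cycle phases were counted in the same way. Of 42 listed DNA replication genes, 0 were called by limma in the averaged comparison and 4 rose in ozone, among them Lig1, Pold1 and Tyms, against 0.728% of all genes risen. Their medians were 0.26 and 0.31. At an unadjusted p under 0.05 there were 16 of 42 on average (1350 of all genes) and 19 of 42 in ozone (2103 of all genes). Tyms, thymidylate synthase, went from 23.1 ± 6.28 in Sham_O3 to 45.7 ± 7.04 in HepV_O3 (SD), a change of 0.99 ± 0.20 (adjusted p = 0.0179). Of 28 genes of G1 and entry into S phase, 0 were called on average and 1 rose in ozone, E2f2, an activator of S phase genes (1.00 ± 0.22, adjusted p = 0.0287), with medians of 0.01 and 0.04. Among 13 targets of p53, 0 were called on average, and Plk3 and Sesn2, both stress-response genes, fell in ozone by 1.18 ± 0.28 and 1.16 ± 0.29 (adjusted p = 0.0418 and 0.0428), against 0.427% of all genes fallen. Of 16 ligands and receptors of hepatocyte growth, such as Met, Egfr and Il6st, 0 were called in either comparison by limma. The unadjusted p was under 0.05 for 0 on average (1350 of all genes) and 2 in ozone (2103 of all genes).

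Markers of the cells that liver tissue can hold were set beside the mitosis genes. In the averaged comparison 0 of 79 listed markers (of 102 chosen) were called by limma. Of the 79, 5 had an unadjusted p under 0.05, against 1350 of all 14971 genes. In ozone 1 fell after vagotomy, the hepatocyte factor Hnf4a (16449 ± 1799 to 11420 ± 2431, SD, adjusted p = 0.0205), and 0 rose. Blood and immune cells in bulk liver can hold dividing cells, and their summed markers overlapped between groups. For vagotomy in ozone the estimates of 6 of 6 listed erythroid precursor markers were above 0 (median 0.27). So were those of 10 of 11 macrophage markers (median 0.10), beside 7360 of all 14971 genes. The unadjusted p in ozone was under 0.05 for 2 of 6 and 1 of 11, beside 2103 of all genes. For vagotomy in air the estimates of 2 of the 6 and 4 of the 11 were above 0 (medians -0.06 and -0.04). Over all 79 markers, 46 estimates were above 0 in ozone and 33 in air. The 11 macrophage markers summed to 5869 to 7447 in Sham_Air, 5446 to 8514 in HepV_Air, 5451 to 8512 in Sham_O3 and 5156 to 10718 in HepV_O3. The 6 listed erythroid precursor markers summed to 2854 to 5811, 2956 to 7802, 2304 to 7189 and 4022 to 8742 in the same order. The 4 listed T cell markers summed to 224 to 263, 198 to 346, 151 to 352 and 131 to 316. The 4 listed B and plasma cell markers summed to 79.1 to 232, 94.2 to 249.8, 63.7 to 149 and 52.4 to 119. None of the 79 was at 0 throughout a group. Not listed, and not analysed here, were defining markers such as Cd3d, Ms4a1, Klf1, Mpo and Elane. The part of these cells in the mitosis gene counts was not tested.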

How the data were processed

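Liver RNA-seq of 22 rats was analysed from a deposited table that holds a signal per gene and library, the authors' normalised read count. STAR, Partek, DESeq and DESeq2 and build rn6 are named, per the submitters' processing notes; versions, the annotation, strand use and the handling of reads that match several places are not given in the sources used here. Each of the 22 columns is 1 library, and 0 columns were left out. In every column 100% of values were whole multiples of 1 step (tolerance 0.001), which gave back the reads.

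Values were taken as log2(count + 1), with no minimum count. One linear model with a mean per group was fitted over all 22 libraries with limma 3.58.1 (R 4.3.3), moderated by empirical Bayes with a trend in intensity. There were 6 comparisons: vagotomy minus sham in air, in ozone and averaged; ozone minus air in sham and in vagotomised rats; and the difference of these. The threshold was an adjusted p of 0.05 (Benjamini-Hochberg over 14971 genes). The script was tested on simulated data. P-values measure the spread between single rats per group; no covariate was used.

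Alternatives were pseudocounts of 0.5 and 5, a minimum mean of 10, scaling to equal totals or upper quartiles, edgeR 4.0.16 (TMM or the submitters' size factors) and DESeq2 1.42.0 on the recovered reads, a replicate block, robust moderation, only the groups compared, 5.8S ribosomal RNA as a covariate, leaving out the 4 libraries with 5.8S under 200, and leaving out each library. On recovered reads edgeR called 49 genes in the averaged comparison with TMM and 50 with the submitters' size factors, and DESeq2 134, against 37 by limma.

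All 42 mitosis genes are accounted for, by role. Values per library are given for the genes with the smallest p of each role, and from a pathway list up to 6 genes of smallest p, apart from genes that passed in ozone. Most other listed genes are given as counts only, and some items are not reported here. The genes and lists were chosen with earlier results of these data known. Promoter sequences are from RefSeq, build GRCr8, another build than the authors' rn6, and were matched by symbol.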

Additional observations from a re-analysis of the deposited data

Results flagged for a closer look

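Single libraries stood apart from the rest of their group for 10 of the 164 combinations of gene or sum and group that were examined, by the gap to the nearest library relative to the group's range. Chance alone flags about 1 in 20 groups.

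Library 6 of the sham ozone group was the highest of its group by such a gap for 3 genes: Kif23 at 7.08 normalised counts (next 2.63), Kif2c at 4.72 (next 1.10) and Melk at 4.72 (next 1.22). HepV_O3 2 stood apart for Plk1, at 37.4 (next 15.3), and for the kinesin Kif15, at 19.2 (next 9.33). Melk was at 11.1 in HepV_Air 1 (next 3.06). Ncapd2 was at 183 in HepV_O3 1 (next 129.6), a library low in 5.8S ribosomal RNA. Smc4 was lowest in Sham_O3 3, at 91.9 (next 153.5), also a library low in 5.8S. In Sham_Air, Cenpe was at 1.78 in library 1 (next 4.96) and Kif20a at 29.7 in library 3 (next 16.9).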

How the results depend on the processing

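No mitosis gene whose change is printed changed its direction under any alternative. In the averaged vagotomy comparison Ccnb1, Cdk1, Top2a, Ttk, Knl1 and Ect2 stayed called in every alternative that tested them. The number of mitosis genes called there (14) was 7 with a minimum mean of 10 (22 tested), 22 with DESeq2, 8 with 5.8S as a covariate, 8 without the 4 libraries low in 5.8S, and 8 to 18 with 1 library left out. The vagotomy count in ozone (18) was 11 with the minimum, 4 with only the groups compared, and 4 to 21 with 1 library left out. Ozone in sham rats (9) gave 14 with equal upper quartiles, 5 with edgeR under either scaling, and 6 to 14 with 1 library left out. Ozone in vagotomised rats (2) gave 0 with equal column totals or upper quartiles, 1 without the 4 libraries, 1 with only the groups compared, and 0 to 2 with 1 library left out. The causes were not tested, apart from fewer genes or libraries where an alternative leaves them out.

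Over all genes, scaling to equal totals moved the median change by -0.10 for ozone in sham rats and 0.09 for vagotomy in ozone. The share of risen genes among those called went from 51.1% to 34.0% (39.2% with upper quartiles) for ozone in sham rats and from 63.0% to 86.5% for vagotomy in ozone. All genes called in the averaged comparison (37) numbered 14 with the minimum mean, 14 with a replicate block, 24 with the covariate and 134 with DESeq2. Vagotomy in ozone (173) gave 393 with DESeq2, 325 with the covariate, 291 without the 4 libraries and 16 with only the groups compared.

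With the replicate number as a replicate block, 6 mitosis genes rose in the averaged comparison and 13 in ozone. The numbers only count rats within a group: over 31 pairs of libraries with the same number the correlation of their deviations ran from -0.49 to 0.61 with a median of 0.03, and 2 libraries correlated best with their own number.

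Depth limits the 18 genes with a mean under 10, for which 1 read is a sizeable share of a value, and several sham ozone libraries had 0 reads.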

Other observations

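Outside the lists, the genes whose levels were most like the mitosis genes over the 22 libraries were ranked by Pearson's r of log2 count with the mean standardised level of the 22 mitosis genes with a mean of at least 10, among 12219 genes. Libraries share group structure and depth, so r is a description. Arhgap19 came highest (0.869), with means of 7.55 ± 2.41 in Sham_Air, 13.9 ± 4.21 in HepV_Air, 2.73 ± 1.65 in Sham_O3 and 16.8 ± 7.93 in HepV_O3 (SD). Its change in the averaged vagotomy comparison was 1.52 (limma adjusted p = 0.00531). The 22 mitosis genes used for the ranking were themselves estimated higher after vagotomy. A rise of any gene ranked high therefore follows in part from the choice and is not separate support. Gas2l3, a cytoskeletal linker of dividing cells, had r = 0.868 and an averaged change of 1.48 (adjusted p = 0.0720). Fancd2, of DNA crosslink repair, had r = 0.829.

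Genes of liver metabolism stood among the most similar as well. Slc2a5, the fructose transporter GLUT5, had r = 0.807 and means of 64.4 ± 15.3, 87.6 ± 21.6, 37.1 ± 9.08 and 91.5 ± 14.1 in Sham_Air, HepV_Air, Sham_O3 and HepV_O3. It rose by 0.87 in the averaged comparison (adjusted p = 0.00531). Gys2, liver glycogen synthase, had r = 0.820 and means of 1327 ± 137, 1453 ± 74.4, 1082 ± 215 and 1627 ± 217, with an averaged change of 0.37 (adjusted p = 0.0559). Kntc1, of the kinetochore, and Mastl, the Greatwall kinase of mitotic entry, are in none of the lists and are named because they passed. They rose by 1.76 ± 0.32 and 1.42 ± 0.28 in the averaged comparison (adjusted p = 0.0114 and 0.0253).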
